A study of Mus musculus with 28 samples.

Results

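The kinesin and cytoplasmic dynein motor genes were taken by symbol: the numbered kinesins (Kif), the kinesin light chains (Klc), the dynein subunits (Dync1, Dync2 and Dynl) and the dynactin subunits (Dctn), with pseudogenes left out. The rule found 64 of the 43629 genes in the count table. By known role, 19 were kinesins or light chains that carry cargo along axons and dendrites, 13 were subunits of cytoplasmic dynein 1, 6 were subunits of dynactin, 12 were kinesins of cell division, 9 were motors of cilia and centrioles and 5 had other roles. Of the 64, 59 passed the filter on low counts in input and 50 in the pulldown, where 4 of the 12 mitotic kinesins passed. Kif2b and Kif12 had 0 counts in all 28 libraries, and Kif14, Kif18b and Kif28 stayed under the filter everywhere. Their RNA was measured in the cortex of mice with experimental autoimmune encephalomyelitis (EAE), an inflammatory disease of the nervous system started by immunising mice against MOG35-55, a piece of a myelin protein. All mice, the healthy ones included, had the genotype Glt25d2 BacTRAP, in which a tag on ribosomes is expressed under the control of Glt25d2 (now Colgalt2), a gene of layer 5 projection neurons, so other cells that use this promoter would be pulled down too. RNA pulled down with the tagged ribosomes (IP) and RNA of the whole cortex before the pulldown (input) were sequenced from healthy mice (5 libraries of each), from mice in the acute phase at 15 days after immunisation (5 of each) and from mice in the chronic phase at 30 days (4 of each). The labels give no age. They also leave unsaid whether each library is a mouse of its own, and the p-values therefore measure a spread between libraries that may be technical.

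Kinesins walk mostly toward the growing ends of microtubules, which in an axon point away from the cell body, and so carry vesicles, mitochondria and cytoskeletal cargo outward. Cytoplasmic dynein walks the other way with the help of dynactin, and returns signalling endosomes and worn organelles to the cell body. Projection neurons of layer 5 send axons out of the cortex over long distances and depend on both kinds of motor, while the mitotic kinesins are known for building and moving the spindle of dividing cells, and some of them also act on the microtubules of neurons.

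Totals ran from 6198088 to 21229550 counts per IP library and from 17848273 to 27915940 per input library. At least 1 count was found for 36 to 61 of the 64 motor genes in an IP library and for 61 or 62 in an input library. Fewest genes were detected in the IP libraries acute 3, acute 1, chronic 3 and healthy 5, with 9566 to 11087 genes against 17995 in the richest, and results that rest on them are given with and without them. Of 13 layer 5 markers, 8 were called higher in IP than in input in healthy, 9 in acute and 8 in chronic libraries. Among all 16580 genes tested, 7.2%, 8.56% and 8.74% were called higher. The summed level of the 13 markers was 1473 to 2664 CPM (counts scaled to a common library size, as CPM in edgeR) in IP, against 843 to 971 CPM in input. Oligodendrocyte markers summed to 867 to 3273 CPM in IP and to 2166 to 4002 CPM in input, so RNA of other cells was still present in the pulldown. Not every other cell type was lower in IP. Summed astrocyte markers had means of 1177, 1934 and 2394 CPM in healthy, acute and chronic IP, against 1514, 2196 and 2007 CPM in input. Those of endothelial and mural cells had means of 82.3, 44.7 and 79.5 CPM in IP, against 64.9, 64.8 and 79.5 CPM in input. Means of oligodendrocyte precursor, microglial and leukocyte markers were lower in IP in each phase.

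Transport and mitotic motors differed in their promoter motifs, which the choice by symbol did not use. Windows of 300 bases, from 250 before to 50 after the gene start, were found in RefSeq (GRCm38.p6) for 49 of the 64 genes. Both strands were searched for TTTGAA, the core of the cell cycle homology region found at many genes of mitosis, for CCAAT, the box bound by NF-Y, and for GGGCGG, the GC box bound by Sp1 family factors. A gene with more than 1 window was counted once, if any of them held the motif. TTTGAA stood in 9 of 11 mitotic kinesins (Kif11, Kif14, Kif15, Kif18b, Kif20b, Kif22, Kif23, Kif2c and Kif4) and in 1 of 14 transport kinesins and light chains (Kif1a). It stood in 0 of 9 dynein 1 genes, in 1 of 4 dynactin genes (Dctn1) and in 20.2% of all 27025 genes with a window. In 7 of the 11 mitotic kinesins it began within 30 bases of the gene start, a distance chosen after the positions were seen. The same held for 3.14% of all 32851 windows, counted by window, and for 0 of the 27 transport motor genes. The GC box had another distribution, with 12 of 14 transport kinesins and light chains, 8 of 9 dynein 1 genes and 1 of 4 dynactin genes. It stood in 6 of 11 mitotic kinesins and in 38.2% of all genes with a window. CCAAT was found in 7 of 11 mitotic, 5 of 14 transport kinesin, 3 of 9 dynein 1 and 3 of 4 dynactin genes, and in 41.1% of all genes. Windows were found for 4 of the 6 dynactin genes, too few for these counts to set dynactin apart from the other transport motors. A match is a run of letters and was not tested as a binding site.

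The promoters of 2 mitotic and 2 transport genes show the contrast in TTTGAA, each written along its own gene's strand with the letters of the 3 motifs, on either strand, in capitals. Kif11 drives the poles of the spindle apart and Kif23 acts in cytokinesis, the last step of cell division, while Kif3a and Klc1 are transport genes described in detail further on. In Kif3a a CCAAT box on the opposite strand and a GC box share their letters.
Kif11 promoter (chr19:37376132-37376431, plus strand): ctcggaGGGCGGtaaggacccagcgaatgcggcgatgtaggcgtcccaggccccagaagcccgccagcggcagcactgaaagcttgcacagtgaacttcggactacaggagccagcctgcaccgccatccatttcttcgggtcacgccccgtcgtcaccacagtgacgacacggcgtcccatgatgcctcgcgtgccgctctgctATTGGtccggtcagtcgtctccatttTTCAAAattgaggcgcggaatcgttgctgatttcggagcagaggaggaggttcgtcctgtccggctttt
Kif23 promoter (chr9:61946750-61947049, minus strand): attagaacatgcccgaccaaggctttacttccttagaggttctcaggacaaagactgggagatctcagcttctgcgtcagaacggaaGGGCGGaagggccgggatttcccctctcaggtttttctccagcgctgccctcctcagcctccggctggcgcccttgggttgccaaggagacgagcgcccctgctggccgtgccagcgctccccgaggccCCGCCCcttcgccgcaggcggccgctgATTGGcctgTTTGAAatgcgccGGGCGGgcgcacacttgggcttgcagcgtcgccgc
Kif3a promoter (chr11:53567119-53567418, plus strand): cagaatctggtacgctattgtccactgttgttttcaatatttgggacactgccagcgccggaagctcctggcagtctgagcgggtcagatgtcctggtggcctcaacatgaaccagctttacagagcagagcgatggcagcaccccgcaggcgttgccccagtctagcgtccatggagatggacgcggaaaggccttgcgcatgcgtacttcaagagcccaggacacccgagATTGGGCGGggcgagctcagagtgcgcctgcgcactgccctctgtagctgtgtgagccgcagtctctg
Klc1 promoter (chr12:111758618-111758917, plus strand): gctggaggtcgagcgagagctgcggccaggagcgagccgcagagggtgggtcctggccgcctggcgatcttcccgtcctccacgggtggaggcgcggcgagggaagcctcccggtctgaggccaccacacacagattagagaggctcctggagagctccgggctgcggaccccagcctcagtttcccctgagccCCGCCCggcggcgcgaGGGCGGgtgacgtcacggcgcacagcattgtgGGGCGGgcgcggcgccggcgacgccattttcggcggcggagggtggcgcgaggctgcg
In the Kif11 and Kif23 windows TTTGAA (printed as TTCAAA where it lies on the opposite strand) followed closely on a CCAAT box near the gene start. The Kif3a and Klc1 windows held no TTTGAA, and Klc1 held 3 GC boxes and no CCAAT. GC boxes were not particular to the transport genes: they stood at -163, -34 and 16 bases from the gene start in Kif23 and at -244 in Kif11.

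**Figure D1:**
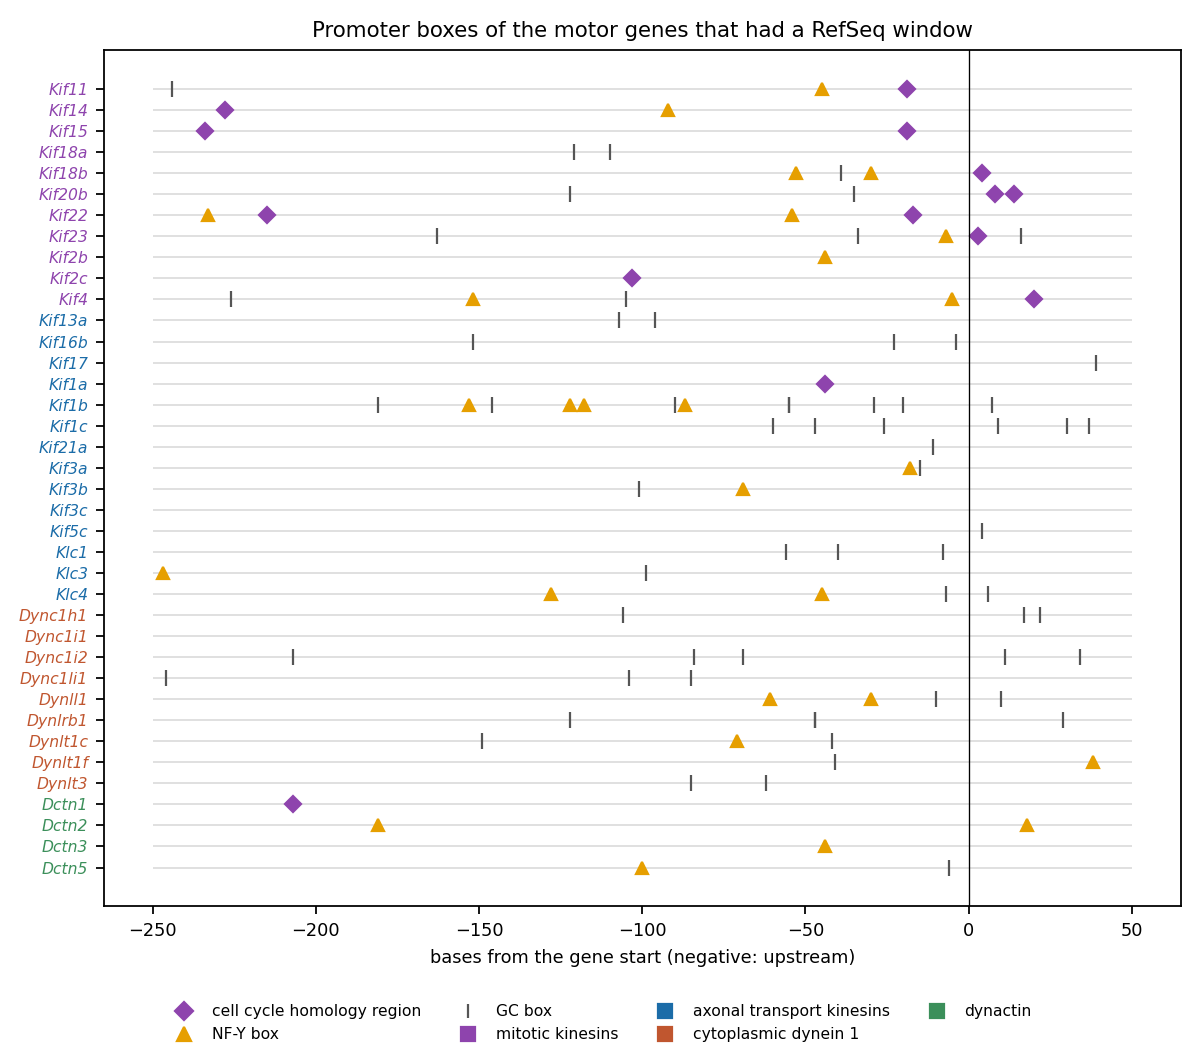
Positions of the 3 promoter motifs in the windows of mitotic kinesins, transport kinesins and light chains, cytoplasmic dynein 1 and dynactin. The x axis gives bases from the gene start and each row is 1 gene. Diamonds (TTTGAA) lie in 9 of 11 mitotic rows, mostly close to the start, and in 2 of the 27 rows of the transport motors.

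In healthy cortex the motor genes spanned several orders of magnitude, with the roles overlapping in their order. Levels are compared between genes as CPM per kilobase of exon, with the SD over 5 libraries. That length is summed over all annotated exons of a gene and can exceed that of the transcripts in use. In healthy input Dynll2, a small light chain that dynein shares with other proteins, was highest at 526 ± 27.9 CPM per kb, followed by the kinesin-1 light chain Klc1 at 268 ± 8.19 CPM per kb. The dynein light chain Dynlrb1 at 213 ± 9.96 and the kinesin-1 heavy chain Kif5a at 209.8 ± 11.8 CPM per kb came next and did not differ beyond their spread. Then came Dctn2 at 158 ± 4.85, Dynll1 at 134 ± 4.51 and Dctn3 at 119 ± 3.58 CPM per kb, each above the next by more than both SDs. Kif5c and Klc2 did not differ beyond their spread, at 96.7 ± 4.97 and 94.7 ± 5.17 CPM per kb. The third kinesin-1 heavy chain, Kif5b, which most cell types use, was lower at 22.8 ± 1.40 CPM per kb. The dynein heavy chain Dync1h1, the motor itself, stood at 12.6 ± 1.25 CPM per kb, below each of the 6 dynactin subunits.

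Most mitotic kinesins lay far below, though Kif22 stood above the transport gene Klc3 (0.743 ± 0.303 CPM per kb). Their median in healthy input was 0.111 CPM per kb, against 22.8 CPM per kb for the transport kinesins, and the highest, Kif22, reached 1.49 ± 0.282 CPM per kb. The ciliary motors had a median of 0.846 CPM per kb, led by Dync2li1 at 14.3 ± 0.467 CPM per kb. In healthy IP the order changed at the top: Klc1 led at 467 ± 27.5 CPM per kb, above Dynll2 at 325 ± 38.0, Dctn2 at 299 ± 30.8 and Dynlrb1 at 292 ± 34.4 CPM per kb, and the last 3 did not differ beyond their spread.

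**Figure D2:**
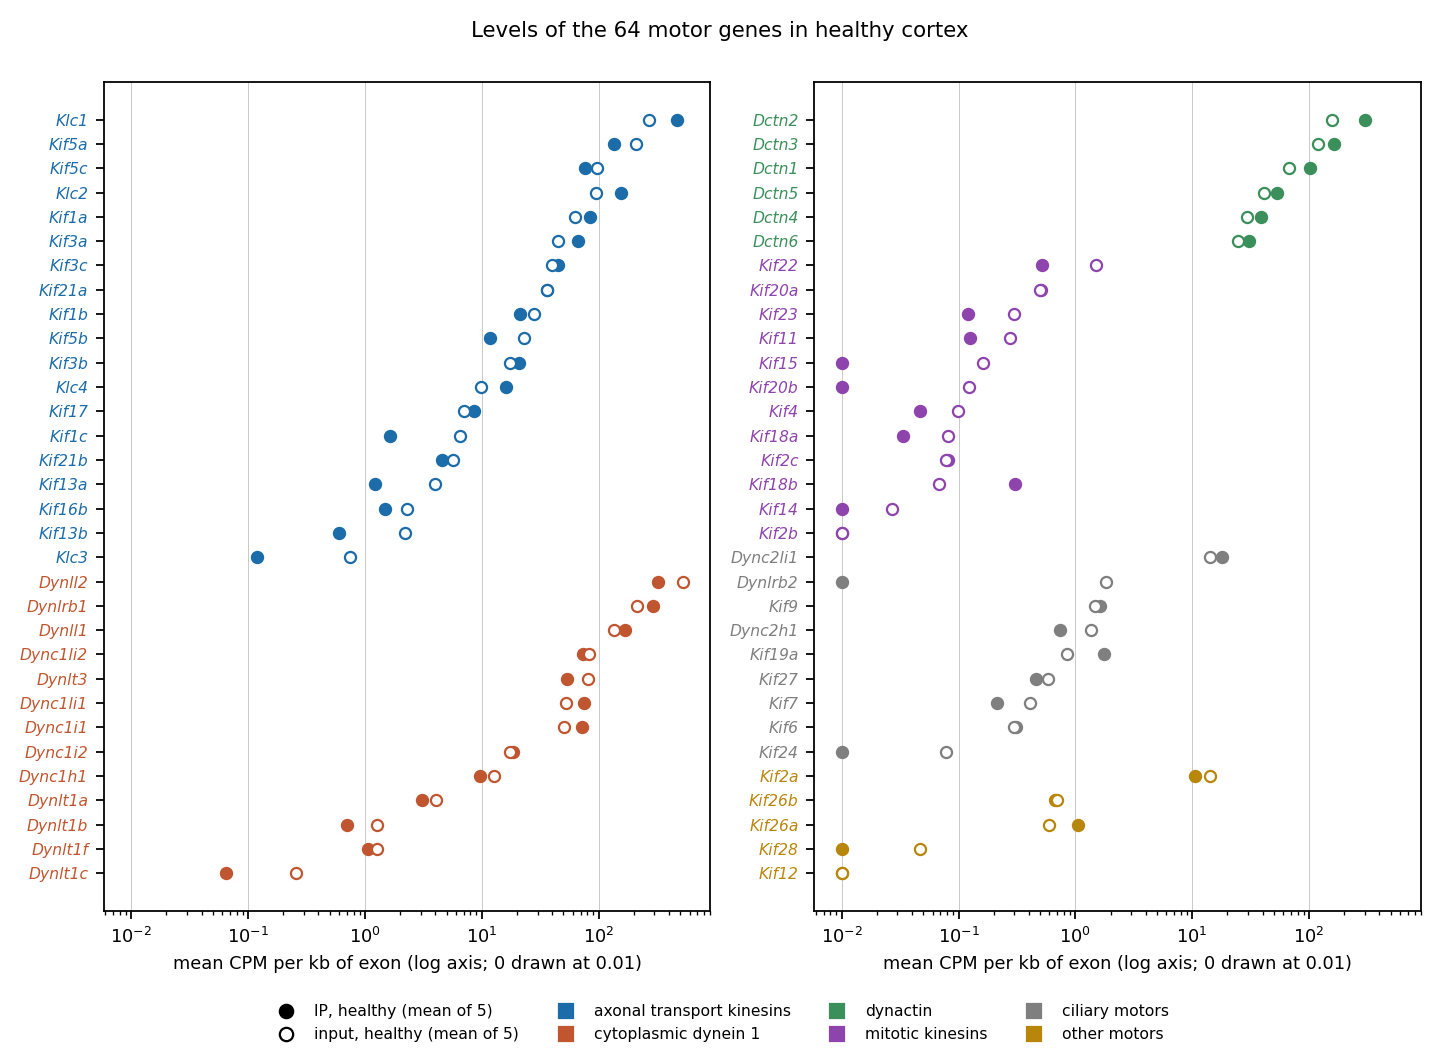
Mean CPM per kilobase of exon in healthy IP (filled) and healthy input (open), 5 libraries each, on a log axis, for all 64 motor genes grouped by role. Transport kinesins, dynein 1 and dynactin fill the upper range and the mitotic kinesins lie at 1.49 CPM per kb or lower in input. A mean of 0 is drawn at 0.01.

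The pulldown did not take the motor genes as a block. In the 3 comparisons of IP with input, 59 motor genes passed the filter on low counts. In healthy libraries 9 were higher in IP than in input and 10 lower (7.2% of all 16580 genes tested were called higher and 14.4% lower, by edgeR's quasi-likelihood test at an adjusted p under 0.05). In acute libraries 8 were higher and 5 lower (8.56% and 10.1% of all genes), and in chronic libraries 9 were higher and 11 lower (8.74% and 20% of all genes). Higher in all 3 phases were Klc1, Klc2, Kif3a, Kif1a, Dync1i1, Dync1li1, Dctn1 and Dctn2, all of them transport motors. Lower in all 3 were Kif1c, Dynll2 and Dynlt3. Kif24 was called lower in each phase too, but it had reads in 1 of the 14 IP libraries and passed the filter only through input. The median change over the 59 was -0.24, -0.032 and 0.075 (log2, healthy, acute and chronic), beside -0.23, -0.36 and -0.32 over all genes tested. Without the 4 IP libraries with the fewest genes, 14, 18 and 15 of 60 motor genes were higher (12.8%, 15.7% and 14.1% of all 16903 genes) and 14, 3 and 15 lower (21.4%, 11.2% and 28% of all genes) in healthy, acute and chronic libraries. The 8 genes named as higher and the 3 named as lower kept their direction and their call, and the adjusted p of Kif24 in the acute phase became 0.0571.

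Kinesin-1 is built from 2 heavy chains (Kif5a, Kif5b or Kif5c), which hold the motor, and light chains (Klc), which bind cargo, and the chains behaved differently. Coordinates of genes are those of the count table (GRCm38). Klc1 (chr12:111758849-111807844, plus strand) had 1821, 1941, 1819, 2080.2 and 1845 CPM in the 5 healthy IP libraries, against 1066, 1089.7, 1059, 1143 and 1097 CPM in healthy input. In the acute phase it had 2381, 2231, 1856, 2204 and 2518 CPM in IP, against 1112, 1097, 1053, 1059 and 1063 CPM in input. In the chronic phase IP held 1789, 2530.5, 1773 and 1770.2 CPM and input 1027, 1010.3, 1019 and 954 CPM. In each phase the lowest IP library lay above the highest input library, and the log2 fold changes were 0.80 ± 0.088, 1.06 ± 0.088 and 0.97 ± 0.098 (SE, edgeR adjusted p 1.01e-07, 2.34e-10 and 1.26e-08). Klc2 had 628, 681, 520.0, 703 and 673 CPM in healthy IP against 377, 400.3, 364, 418 and 399.5 CPM in healthy input, 924, 856, 692, 824 and 1028 CPM in acute IP against 416, 429, 406, 406 and 387 CPM in acute input, and 775, 660.4, 579 and 466 CPM in chronic IP against 404, 366, 369 and 357 CPM in chronic input. It was higher in every IP library, by 0.71, 1.08 and 0.73 (adjusted p 3.08e-05, 1.76e-08 and 6.79e-05). Klc4 had 49.2, 33.1, 18.1, 34.0 and 54.5 CPM in healthy IP against 21.0, 21.3, 22.0, 25.1 and 24.4 CPM in healthy input, and neither it nor Klc3 passed the test in any phase.

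The heavy chains did not follow their light chains. Kif5a (chr10:127225696-127263363, minus strand), the neuronal heavy chain, had 831, 959, 649, 953 and 876 CPM in healthy IP, against 1360.1, 1357, 1256, 1410.2 and 1235 CPM in healthy input. It was thus lower in every healthy IP library (log2 fold change -0.63 ± 0.13, adjusted p 0.000524). Kif5b had 134, 70.5, 90.9, 114 and 24.4 CPM in healthy IP, against 173, 181, 158, 173 and 157 CPM in healthy input (-0.96 ± 0.27, adjusted p 0.00867), with the lowest value in healthy IP 5, a library with few genes, and the change without it and the other 3 such libraries was -0.69. Kif5c gave 613, 513, 528, 685 and 393 CPM in healthy IP and 704, 684, 636, 734 and 694 CPM in healthy input, and its change of -0.34 ± 0.16 did not pass (adjusted p 0.163). In the acute and chronic phases the changes of Kif5a were -0.33 ± 0.13 and -0.28 ± 0.14 and did not pass the test (adjusted p 0.0711 and 0.167), and whether they differed from the healthy one did not pass either (adjusted p 0.645 and 0.411 for the interactions). Per kb, the light chains Klc1 and Klc2 summed to 2.54 to 3.13 times the 3 heavy chains in healthy IP libraries, against 1.05 to 1.17 times in healthy input. The same ratio was 2.16 to 5.06 in acute IP and 1.10 to 1.17 in acute input, and 1.37 to 2.40 in chronic IP and 0.815 to 0.966 in chronic input, so the ranges did not overlap in any phase. Within the heavy chains Kif5a made up 54.4 to 70.4% in healthy IP and 62.3 to 64.3% in healthy input, which overlap.

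Kinesin-2 carries vesicles and other cargo with 2 motor subunits, Kif3a with Kif3b or Kif3c, and the adaptor Kifap3. Kif3a (chr11:53567379-53601967, plus strand) had 227, 245, 235, 244 and 249.7 CPM in healthy IP, against 167, 164, 141, 166 and 165 CPM in healthy input. Acute IP held 214, 367, 310.4, 347 and 328 CPM and acute input 141, 134, 129, 137 and 113 CPM. Chronic IP held 381, 356, 483 and 329.7 CPM and chronic input 144, 154, 149 and 120.1 CPM. No IP library overlapped with the input of its phase, and the log2 fold changes were 0.58 ± 0.12, 1.26 ± 0.12 and 1.45 ± 0.14 (adjusted p 0.000655, 5.37e-09 and 3.72e-09). Kifap3, from a list of 35 motor adaptors and regulators, was higher too, by 0.52 ± 0.16, 0.82 ± 0.16 and 1.51 ± 0.18. The partner subunits Kif3b and Kif3c did not pass the test in any phase, with changes of 0.24 to 0.67 for Kif3b and of 0.060 to 0.38 for Kif3c. Of the exon length of Kif3c, 38.2% overlaps a gene on the other strand, which counting without strand cannot separate. Per kb, Kif3a was 0.788 to 1.27 times the sum of its partners in healthy IP against 0.756 to 0.812 times in healthy input, 1.08 to 1.61 in acute IP against 0.654 to 0.698 in acute input, and 1.25 to 2.51 in chronic IP against 0.717 to 0.800 in chronic input.

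**Figure D3:**
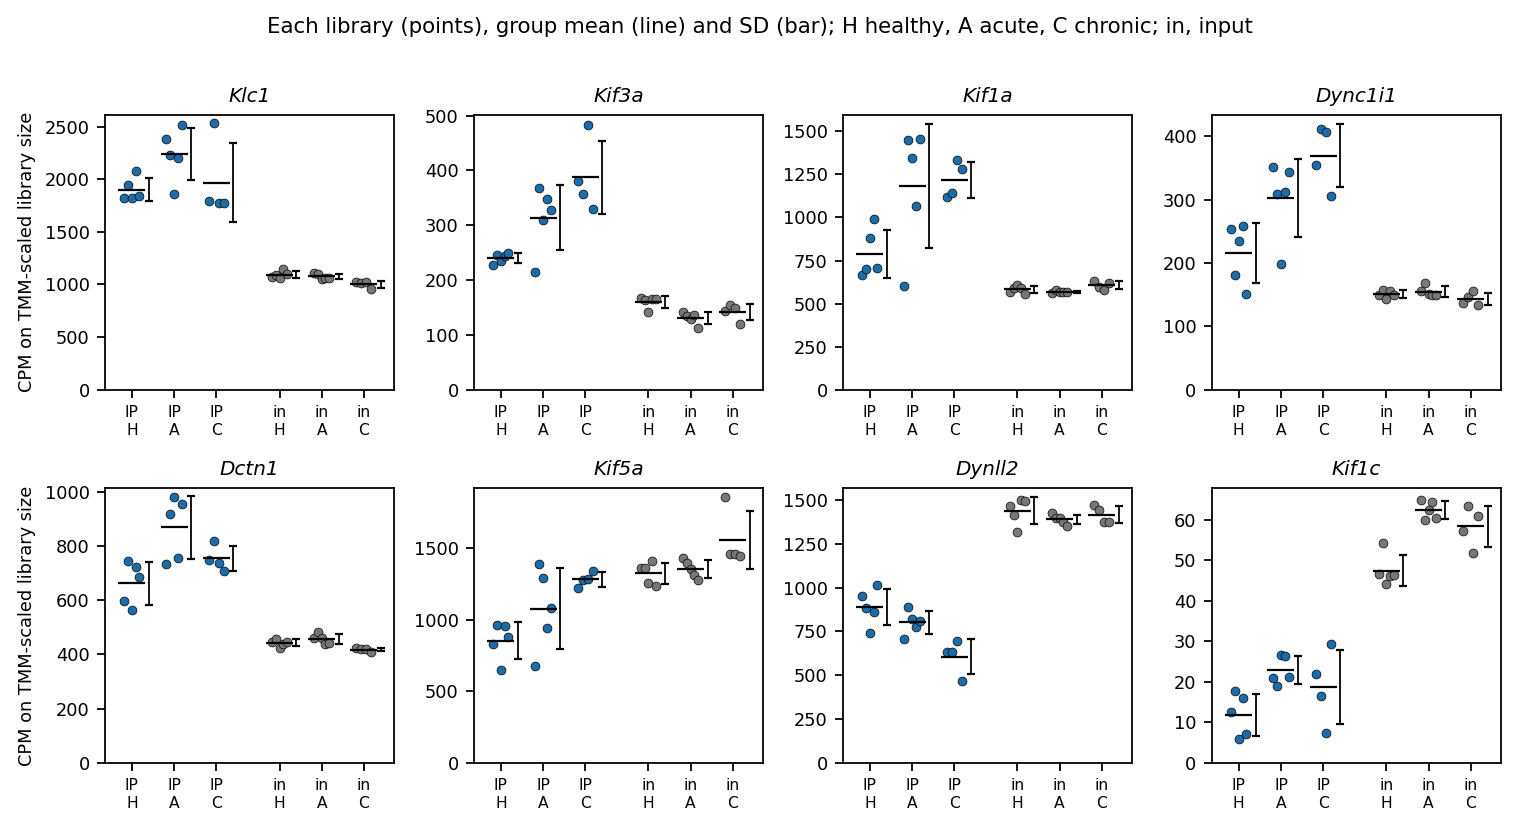
CPM of 8 transport motor genes in each of the 28 libraries (points), with the group mean (line) and SD (bar), IP in blue and input in grey; H is healthy, A acute and C chronic. Klc1, Kif3a and Dctn1 in IP lie above the input of their phase in every library, Dynll2 and Kif1c below it, and the IP means of Kif3a and Dync1i1 are highest in the chronic phase.

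Kinesin-3 moves synaptic vesicle precursors and dense-core vesicles, and its members split by gene. Kif1a, the neuronal member, had 667, 699, 879, 988 and 706 CPM in healthy IP, against 569.7, 592, 606, 589 and 558 CPM in healthy input (0.43 ± 0.15, adjusted p 0.0312), a call that held in 2 of the 5 fits that leave out a healthy replicate. Acute IP held 602, 1451, 1344, 1064 and 1457 CPM against 559, 579, 565, 565 and 566 CPM in acute input, and chronic IP 1119, 1144, 1331 and 1281 CPM against 628, 596, 578 and 619.5 CPM in chronic input. The changes were 1.06 ± 0.15 and 1.01 ± 0.17 (adjusted p 3.34e-06 and 4.04e-05). Kif1bp, an interaction partner of Kif1 family motors, was higher in IP by 0.28, 0.79 and 0.95. Kif1b, which carries mitochondria and synaptic vesicle precursors, did not pass in any phase (-0.41 ± 0.18, -0.032 ± 0.18 and 0.29 ± 0.20).

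Kif1c, a kinesin-3 found in many cell types, went the opposite way. It had 12.6, 17.7, 5.93, 15.9 and 7.04 CPM in healthy IP, against 46.7, 54.2, 44.1, 46.1 and 46.3 CPM in healthy input, 20.9, 19.0, 26.6, 26.4 and 21.2 CPM in acute IP against 64.9, 60.0, 62.5, 64.4 and 60.4 CPM in acute input, and 21.8, 16.5, 7.46 and 29.3 CPM in chronic IP against 57.3, 63.4, 51.9 and 60.9 CPM in chronic input. Every IP library lay below every input library of its phase, and the log2 fold changes were -2.00 ± 0.29, -1.45 ± 0.28 and -1.63 ± 0.32 (adjusted p 8.65e-06, 0.000295 and 0.000304). The other transport kinesins, Kif13a, Kif13b, Kif16b, Kif17, Kif21a and Kif21b, did not pass in any phase.

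In dynein 1 an intermediate chain and a light intermediate chain, which join the motor to dynactin and to cargo adaptors, were higher in IP. Dync1i1 (chr6:5725639-6028039, plus strand), the intermediate chain most used by neurons, had 253, 181, 235, 258 and 150.3 CPM in healthy IP, against 149, 158, 143, 156 and 149.6 CPM in healthy input, where 1 IP library fell within the input range. Acute IP held 352, 308, 198, 312 and 344 CPM and acute input 156, 168, 150.5, 150.0 and 149 CPM. Chronic IP held 354, 411, 406 and 305 CPM and chronic input 137, 146, 155 and 134 CPM, and in these 2 phases the groups did not overlap. The changes were 0.51 ± 0.14, 0.97 ± 0.14 and 1.37 ± 0.16 (adjusted p 0.00640, 5.81e-06 and 1.36e-07). Dync1li1 was higher by 0.51 ± 0.14, 0.70 ± 0.14 and 1.11 ± 0.16 (adjusted p 0.00860, 0.000589 and 6.73e-06), with overlap of the groups in healthy libraries alone, where the call held in 4 of 5 fits without a replicate. Their relatives Dync1i2, expressed in most cells, and Dync1li2 did not pass in any phase. Per kb Dync1i1 made up 71.5 to 84.2% of the 2 intermediate chains in healthy IP against 72.8 to 75.6% in healthy input, which overlap, 84.1 to 94.8% in acute IP against 77.5 to 79.3% in acute input, and 81.8 to 88.1% in chronic IP against 73.7 to 77.6% in chronic input, which do not. The size of these shares depends on the summed exon length, 2968 bases for Dync1i1 and 8280 for Dync1i2. Before division by length, Dync1i1 and Dync1i2 were close in healthy input, at 151 ± 5.90 and 143 ± 8.97 CPM.

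The heavy chain Dync1h1, with 15658 bases of exon, had 124, 195, 165, 129 and 146 CPM in healthy IP against 208, 211, 205, 200.3 and 163 CPM in healthy input, 83.1, 204, 96.1, 156 and 149 CPM in acute IP against 227, 213, 218, 215 and 189 CPM in acute input, and 262, 249, 304 and 321 CPM in chronic IP against 221, 229, 246 and 182 CPM in chronic input. Only its acute change passed (-0.62 ± 0.17, adjusted p 0.00843), with overlapping groups, and it was -0.20 (adjusted p 0.332) without the 4 IP libraries with the fewest genes. Of the small light chains 2 were lower in IP. Dynll2 had 949, 880.3, 738, 859 and 1015 CPM in healthy IP against 1465, 1416, 1316, 1498 and 1497 CPM in healthy input, 708, 889, 823, 777 and 811 CPM in acute IP against 1424, 1397, 1397, 1373 and 1353 CPM in acute input, and 629, 632, 696 and 467 CPM in chronic IP against 1469, 1443, 1376 and 1375 CPM in chronic input. The groups lay apart in each phase, and the changes were -0.70 ± 0.091, -0.79 ± 0.091 and -1.22 ± 0.10 (adjusted p 2.20e-06, 1.25e-07 and 3.07e-10). Dynlt3, a light chain of the Tctex type, was at -0.60 ± 0.15, -0.79 ± 0.15 and -0.66 ± 0.17 (adjusted p 0.00404, 0.000348 and 0.00437). Dynlt3 had 158, 121, 165, 128 and 117 CPM in healthy IP, 71.4, 113, 99.8, 142 and 111 CPM in acute IP and 164, 142, 81.5 and 107 CPM in chronic IP, each below the input of its phase. Dynll1, the near relative of Dynll2, had 502, 427, 526, 446 and 549 CPM in healthy IP against 410.0, 380.3, 399, 379 and 397 CPM in healthy input, and neither it nor Dynlrb1 passed in any phase.

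All 6 dynactin subunits had positive changes in each of the 3 phases, and Dctn1 and Dctn2 passed in each. Dctn1, the subunit that grips microtubules and dynein, had 596, 745, 563, 721 and 684 CPM in healthy IP against 446, 458, 425, 438 and 447 CPM in healthy input, 732, 919, 981, 757 and 954 CPM in acute IP against 461, 484, 461, 439 and 440.2 CPM in acute input, and 749, 820.2, 738 and 708 CPM in chronic IP against 422, 419, 421 and 408 CPM in chronic input. The groups did not overlap, with changes of 0.58 ± 0.089, 0.93 ± 0.089 and 0.85 ± 0.099 (adjusted p 2.32e-05, 4.47e-09 and 1.61e-07). Dctn2, which joins the arm that carries Dctn1 to the filament, had 587, 542, 564, 506 and 664 CPM in healthy IP against 295, 298, 297, 316 and 310.4 CPM in healthy input, 738, 476, 485, 541 and 581 CPM in acute IP against 301, 316, 289, 301 and 294 CPM in acute input, and 478, 614, 356 and 329 CPM in chronic IP against 293, 283, 282 and 266 CPM in chronic input. It too was higher in every IP library, by 0.92 ± 0.13, 0.91 ± 0.13 and 0.66 ± 0.14 (adjusted p 6.50e-06, 4.18e-06 and 0.000956). Actr1a, the actin-related protein that forms the dynactin filament and belongs to the adaptor list, was higher by 0.80, 1.05 and 1.08. Dctn4, on the pointed end of the filament, passed in healthy (0.40 ± 0.13, adjusted p 0.0326, held in 1 of 5 fits without a replicate) and chronic libraries (0.68 ± 0.15, adjusted p 0.00111). Its acute change did not pass (0.30 ± 0.13, adjusted p 0.138). Dctn3, Dctn5 and Dctn6 did not pass, with changes between 0.075 and 0.49.

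**Figure D4:**
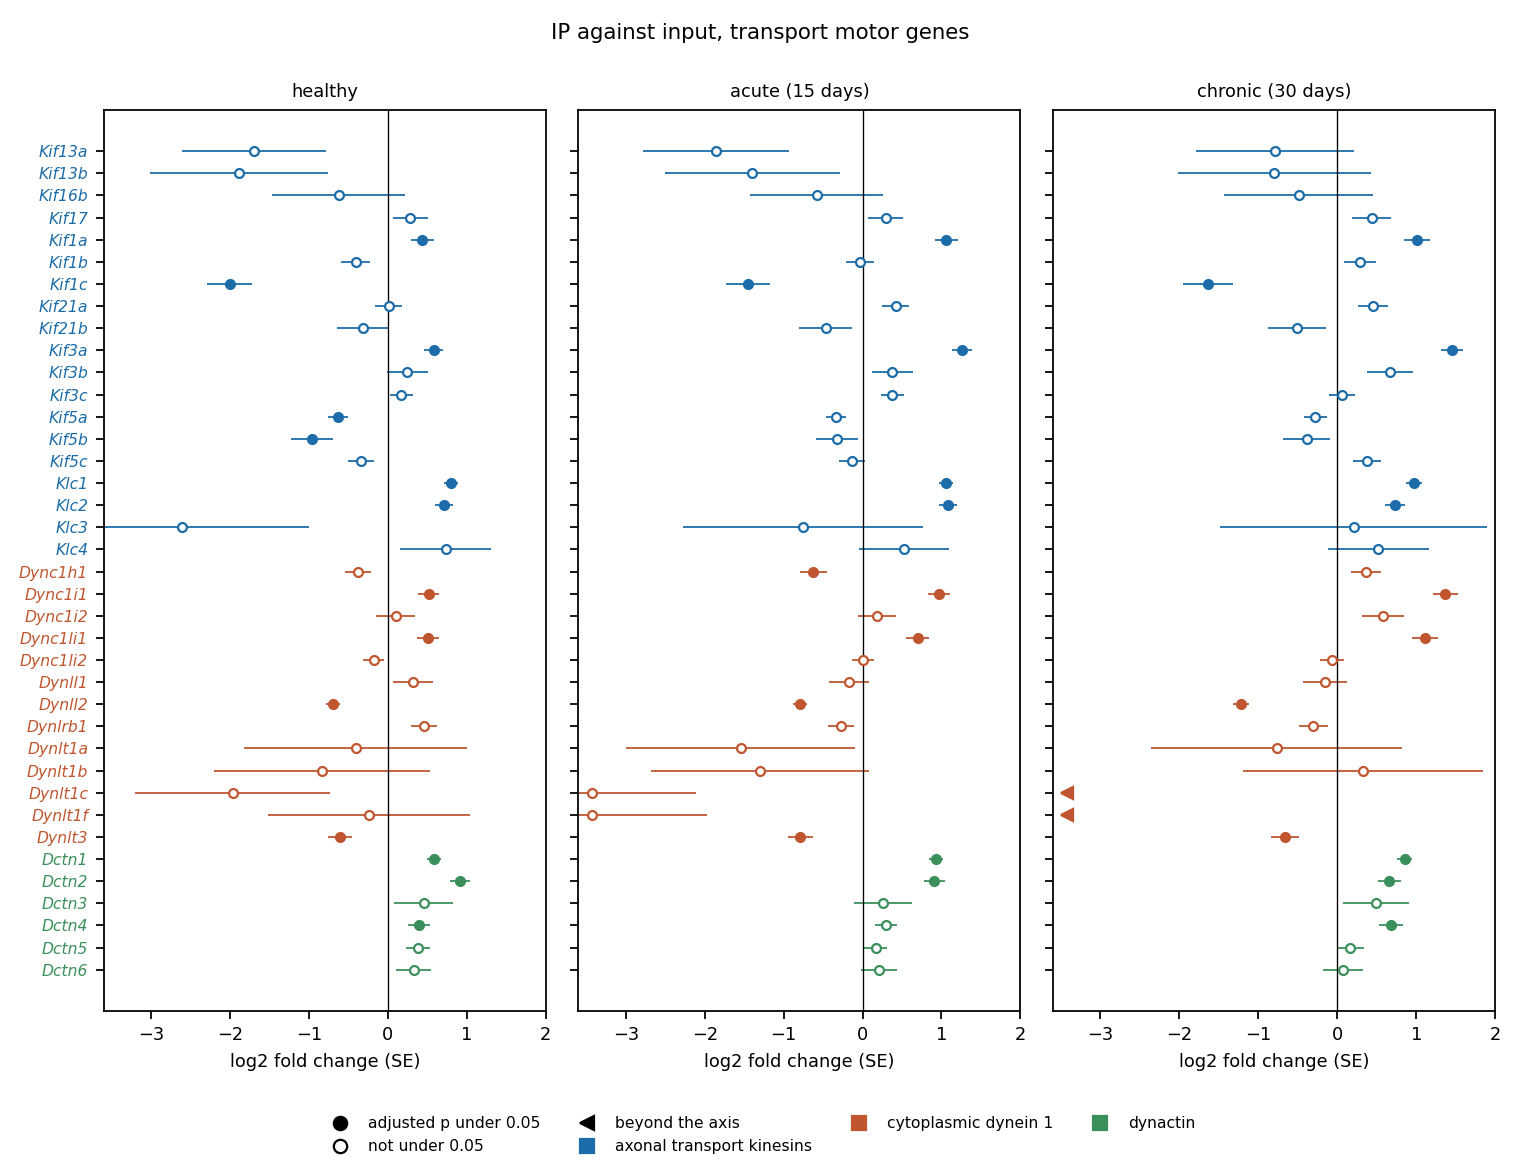
Log2 fold change of IP against input (point) with its SE (bar) for 38 transport motor genes in healthy, acute and chronic libraries; filled points passed at an adjusted p under 0.05. Klc1, Klc2, Kif3a, Kif1a, Dync1i1, Dync1li1, Dctn1 and Dctn2 lie right of 0 in each panel and Kif1c, Dynll2 and Dynlt3 left of it. Dynlt1c and Dynlt1f in chronic IP had 0 counts and are drawn as arrows.

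Exon length moved with the difference between IP and input. Across the 9605 genes with an average of at least 10 CPM, Spearman's rho between summed exon length and the log2 change was -0.41 in healthy, -0.14 in acute and -0.15 in chronic libraries. Across the 35 motor genes among them it was -0.58, -0.33 and -0.25. Genes of one library share its RNA quality and depth, so these values are descriptions. With an offset for length in the fit, the light chains, Kif3a, Kif1a, Dctn1 and Dctn2 stayed called higher and Kif1c, Dynll2 and Dynlt3 lower in all 3 phases, and Kif5a stayed lower in healthy IP (-0.47, adjusted p 0.00112). The acute Dync1h1 difference was then -0.20 (adjusted p 0.395), the chronic one 0.81 (adjusted p 0.000409), Kif1b (0.76), Kif5c (0.48) and Kif21a (0.52) also passed in chronic libraries, and Dync1i1 and Dync1li1 no longer passed in healthy ones (adjusted p 0.103 and 0.224).

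Several motor genes, most of them of dividing or ciliated cells, had no reads in the pulldown: 4 of the 10 genes called lower in healthy IP and 8 of the 11 in chronic IP had 0 counts in every IP library of the phase, with Dynlt1c and Dynlt1f of dynein 1 among the 8. They passed the filter only through input, so a call among them had no other direction to take and is given as a description. A fold is a lower bound against a floor of 3 counts over all libraries of the group, which covers counting error only. In healthy IP all 5 libraries had 0 counts of Kif15, a spindle kinesin, against 77 counts in healthy input (at least 20.3-fold lower), and likewise of Kif20b, a kinesin of cytokinesis (at least 17.9-fold), Dynlrb2, a light chain found in ciliated cells (at least 23.5-fold), and Kif24, which works at centrioles (at least 16.4-fold). The input levels behind these bounds were low: Kif15 had 0.662, 0.884, 0.366, 0.866 and 1.15 CPM in healthy input, Dynlrb2 1.14, 1.40, 0.837, 0.611 and 0.520 CPM and Kif24 0.757, 1.14, 0.419, 0.458 and 0.364 CPM. In chronic IP no library held a read of Kif15, Kif18a, Kif2c, Kif4, Dynlrb2 or Kif24, which were at least 25.6-, 17.6-, 8.92-, 10.5-, 21.5- and 11.2-fold lower than in chronic input. Absence of reads was common at this level: of 4809 genes with 0.3 to 3.5 CPM in input, 35.4% had 0 counts in all 5 healthy IP libraries and 49% in all 4 chronic ones, beside 3 and 6 of the 11 mitotic kinesins in that range. The calls of Kif2c and Kif4 held in 1 and 3 of 4 fits without a chronic replicate, and that of Kif24 in the acute phase in 1 of 5. In acute IP Kif15 had 0, 1.22, 0, 0.367 and 0 CPM, Dynlrb2 0, 1.27, 0, 0.891 and 2.16 CPM and Kif24 0, 0, 0, 0.262 and 0 CPM. Acute IP differed, with 9.46% of such genes and 1 of the 11 mitotic kinesins at 0 in all 5 libraries, and the share at 0 per acute library ran from 14.2% to 90.6%.

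Mitotic kinesins that were detected in IP appeared in a few libraries at a time. Kif11 had 0, 0, 2.99, 0 and 0 CPM in healthy IP, 0, 0, 0, 1.47 and 5.37 CPM in acute IP and 0, 9.69, 9.36 and 0 CPM in chronic IP. In input it was found in every library, with 1.70, 1.30, 1.26, 1.02 and 1.30 CPM in healthy, 2.33, 2.16, 2.21, 1.49 and 1.79 CPM in acute and 1.35, 2.40, 1.20 and 1.23 CPM in chronic libraries. Kif23 had 0, 0, 0, 2.04 and 0 CPM in healthy IP, 0, 0.953, 0, 2.04 and 0 CPM in acute IP and 0, 0, 9.18 and 0 CPM in chronic IP. In input it had 1.04, 0.780, 0.994, 1.32 and 0.937 CPM in healthy, 2.62, 1.01, 0.736, 1.24 and 1.06 CPM in acute and 0.729, 0.768, 1.10 and 0.245 CPM in chronic libraries. Neither passed in any comparison of IP with input. The change of Kif23 in chronic libraries rests on IP replicate 3: it was 1.68 ± 1.78 with that library (adjusted p 0.589), and without the 4 IP libraries with the fewest genes all 3 chronic IP libraries left had 0 counts.

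Across the phases no motor gene passed in IP. Of 50 genes tested, 0 were called in acute against healthy IP (0.0647% of all 13914 genes), 0 in chronic against healthy IP (0.187%) and 0 in chronic against acute IP (0%) by edgeR, while 6, 10 and 7 had an unadjusted p under 0.05 (6.26%, 10.7% and 8.23% of all genes). DESeq2 called 1, 9 and 2 motor genes, among 125, 287 and 157 genes in all. The biological coefficient of variation over all genes was 1.06 in IP and 0.101 in input. In chronic against healthy IP the genes with non-overlapping groups were Dync1h1 (0.90 ± 0.23, adjusted p 0.106), Dync1i1 (0.77 ± 0.19, 0.103), Kif5c (0.75 ± 0.21, 0.159), Kif1b (0.74 ± 0.24, 0.234), Kif3a (0.68 ± 0.17, 0.103), Kif1a (0.62 ± 0.20, 0.217) and Kif5a (0.58 ± 0.17, 0.189), with Dynll2 at -0.56 ± 0.15 (0.113) and Dynlrb1 at -0.88 ± 0.24 (0.126). How many of all 13914 genes had non-overlapping groups was not counted, so these genes have no background to be set beside. Kif5c had 613, 513, 528, 685 and 393 CPM in healthy IP, 299, 699, 429, 722 and 675 CPM in acute IP and 882, 782, 889.9 and 1122 CPM in chronic IP. Kif1b had 306, 318, 458, 439 and 339 CPM in healthy IP, 183, 581, 466, 471 and 503 CPM in acute IP and 535, 518, 615 and 824 CPM in chronic IP. The 4 chronic libraries were the highest for both genes when set beside the healthy ones, and none of these differences reached the threshold.

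Whether the change from healthy differed between IP and input was tested as an interaction. In the chronic phase 2 of 59 motor genes passed, Kif3a at 0.87 ± 0.18 (adjusted p 0.0197) and Dync1i1 at 0.85 ± 0.21 (adjusted p 0.0414), where 1.03% of all 16580 genes passed. For both genes the mean in chronic IP lay above that in healthy IP, a change not called by itself. Their means in chronic input lay below those in healthy input, also without a call. The partners named above passed the same test: Kifap3 was at 0.99 ± 0.24 (adjusted p 0.0406) and Kif1bp at 0.67 ± 0.14 (adjusted p 0.0170), 2 of 35 adaptors and regulators called. The Kif3a call held in 7 of 9 fits without a replicate, failing without chronic replicate 3 or healthy replicate 1, and the Dync1i1 call held in 0 of 9. Neither passed by voom with library quality weights (adjusted p 0.0939 for Kif3a). In the acute phase 0 of 59 passed (0.00603% of all genes), where Kif3a stood at 0.68 ± 0.17 (adjusted p 0.0739); 2 passed by DESeq2, among 351 genes in all. Without the 4 IP libraries with the fewest genes, 12 motor genes were higher and 0 lower in the acute interaction (7.23% and 0.84% of all 16903 genes). Among the 12 were Kif3a at 0.93 (adjusted p 0.000752), Kif1a at 0.84 (0.00116) and Klc1 at 0.38 (0.0480). In the chronic interaction 8 were then higher and 2 lower (5.27% and 5.52% of all genes), with Kif3a at 0.76 (0.000826), Dync1i1 at 0.70 (0.00500), Dync1h1 at 0.70 (0.0243) and Dynll2 at -0.55 (0.00704). Of the 13 layer 5 markers 1 was called higher in the chronic interaction (Nefh, a neurofilament, at 0.88 ± 0.19, adjusted p 0.0266) and 0 lower, with 6 positive and 7 negative changes, and the summed layer 5 markers ran 1473 to 2196 CPM in chronic IP and 1529.7 to 1965 CPM in healthy IP. Summed astrocyte markers ran 1546 to 3243 CPM in chronic IP against 947 to 1288 CPM in healthy IP, and the part of either in these results was not tested.

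In whole cortex the motor genes changed little with disease. In acute against healthy input, 8 of 59 were lower and 1 higher (8.59% of all 16381 genes were called lower and 11.1% higher), with changes between -0.36 and 0.39. Kif1c was the gene that rose: it had 64.9, 60.0, 62.5, 64.4 and 60.4 CPM in acute input, against 46.7, 54.2, 44.1, 46.1 and 46.3 CPM in healthy input, with no overlap (log2 fold change 0.39 ± 0.060, adjusted p 9.69e-05). In chronic input it had 57.3, 63.4, 51.9 and 60.9 CPM and again rose against healthy (0.30 ± 0.063, adjusted p 0.01000), the only motor gene called there (2.74% of all genes called), and the call was lost without chronic replicate 2. Kif1c was thus lower in the pulldown than in whole cortex, and higher in diseased than in healthy cortex. Summed microglial markers were 135 to 214 CPM in acute input against 59.6 to 90.1 CPM in healthy input, and summed astrocyte markers 1837 to 2524 CPM against 1316 to 1612 CPM. In tissue of many cell types, more cells of a type and more RNA per cell cannot be told apart, and the part of these cells in the change of Kif1c was not tested.

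The genes that fell in acute input were transport motors and 1 microtubule depolymerase, while summed layer 5 markers were 905 to 971 CPM in acute input against 876 to 922 CPM in healthy input, with 2 of the 13 called higher and 2 lower. Kif2a, which shortens microtubules and trims axon branches, had 68.9, 76.3, 77.0, 84.6 and 78.8 CPM in acute input, against 91.0, 98.2, 98.4, 104 and 105 CPM in healthy input (-0.36 ± 0.063, adjusted p 0.000383); its change in healthy IP against input was -0.40 ± 0.15 (adjusted p 0.0487, held in 1 of 5 fits without a replicate), and its exons overlap those of Dimt1 on the other strand over 17.4% of their length. Kif3a had the values given above: each acute library lay below 4 of the 5 healthy ones, and healthy replicate 3 lay with the highest acute one (-0.30 ± 0.065, adjusted p 0.00333). Dync1i2 had 119, 122, 117, 116 and 120.4 CPM in acute input, against 155, 141, 129.9, 145 and 143 CPM in healthy input, without overlap (-0.26 ± 0.044, adjusted p 0.000248). Dynlt3 had 186, 189.8, 178, 192 and 182 CPM in acute input, against 209, 215, 207, 210.1 and 205 CPM in healthy input, also without overlap (-0.17 ± 0.036, adjusted p 0.00188). Kif5c fell by 0.15, Kif1b by 0.13, Dctn4 by 0.13 and Dync1li1 by 0.15 on the log2 scale, and the Dync1li1 call held in 4 of 10 fits without a replicate. From the adaptor list Kifap3, the partner of Kif3a, also fell, by 0.19 (adjusted p 0.00102), and Sybu, which links kinesin-1 to syntaxin vesicles, by 0.29 (adjusted p 0.000275); in all 8 of the 35 were lower and 3 higher (8.59% and 11.1% of all genes). Klc1, Kif5a, Kif5b, Kif1a, Dync1h1 and Dctn1 did not pass, with changes between -0.089 and 0.10.

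By the chronic phase these decreases were no longer called against healthy, which does not show a return to the healthy level. Of the genes that had fallen, Kif1b and Kif5c alone were called higher in chronic than in acute input. Kif3a, for example, had 144, 154, 149 and 120.1 CPM in chronic input, against 167, 164, 141, 166 and 165 CPM in healthy input. In chronic against acute input 2 of 59 were higher and 3 lower (2.95% and 4.74% of all genes). Kif1b had 519.5, 529.9, 484 and 511 CPM in chronic input, against 462, 450.2, 447, 463 and 432 CPM in acute input (0.18 ± 0.037, adjusted p 0.00484). Kif5c had 768, 686, 685 and 692 CPM in chronic input, against 615, 627, 623, 648 and 595 CPM in acute input (0.19 ± 0.042, adjusted p 0.00926). Both groups lay apart. Klc4 had 24.6, 20.4, 17.6 and 22.2 CPM in chronic input, against 26.4, 25.2, 28.4, 27.5 and 26.0 CPM in acute input. Dynll1 had 370.0, 370.3, 377 and 373 CPM in chronic input, against 425, 414, 407, 401 and 441 CPM in acute input. Klc4 (-0.33 ± 0.087), Dynll1 (-0.16 ± 0.038) and Dctn1 (-0.13 ± 0.035) were lower (adjusted p 0.0253, 0.0139 and 0.0307), and the calls of Klc4 and Dctn1 held in 5 and 4 of 9 fits without a replicate. Chronic and acute input were each also compared with the same healthy libraries, so the 3 sets of values are not independent.

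**Figure D5:**
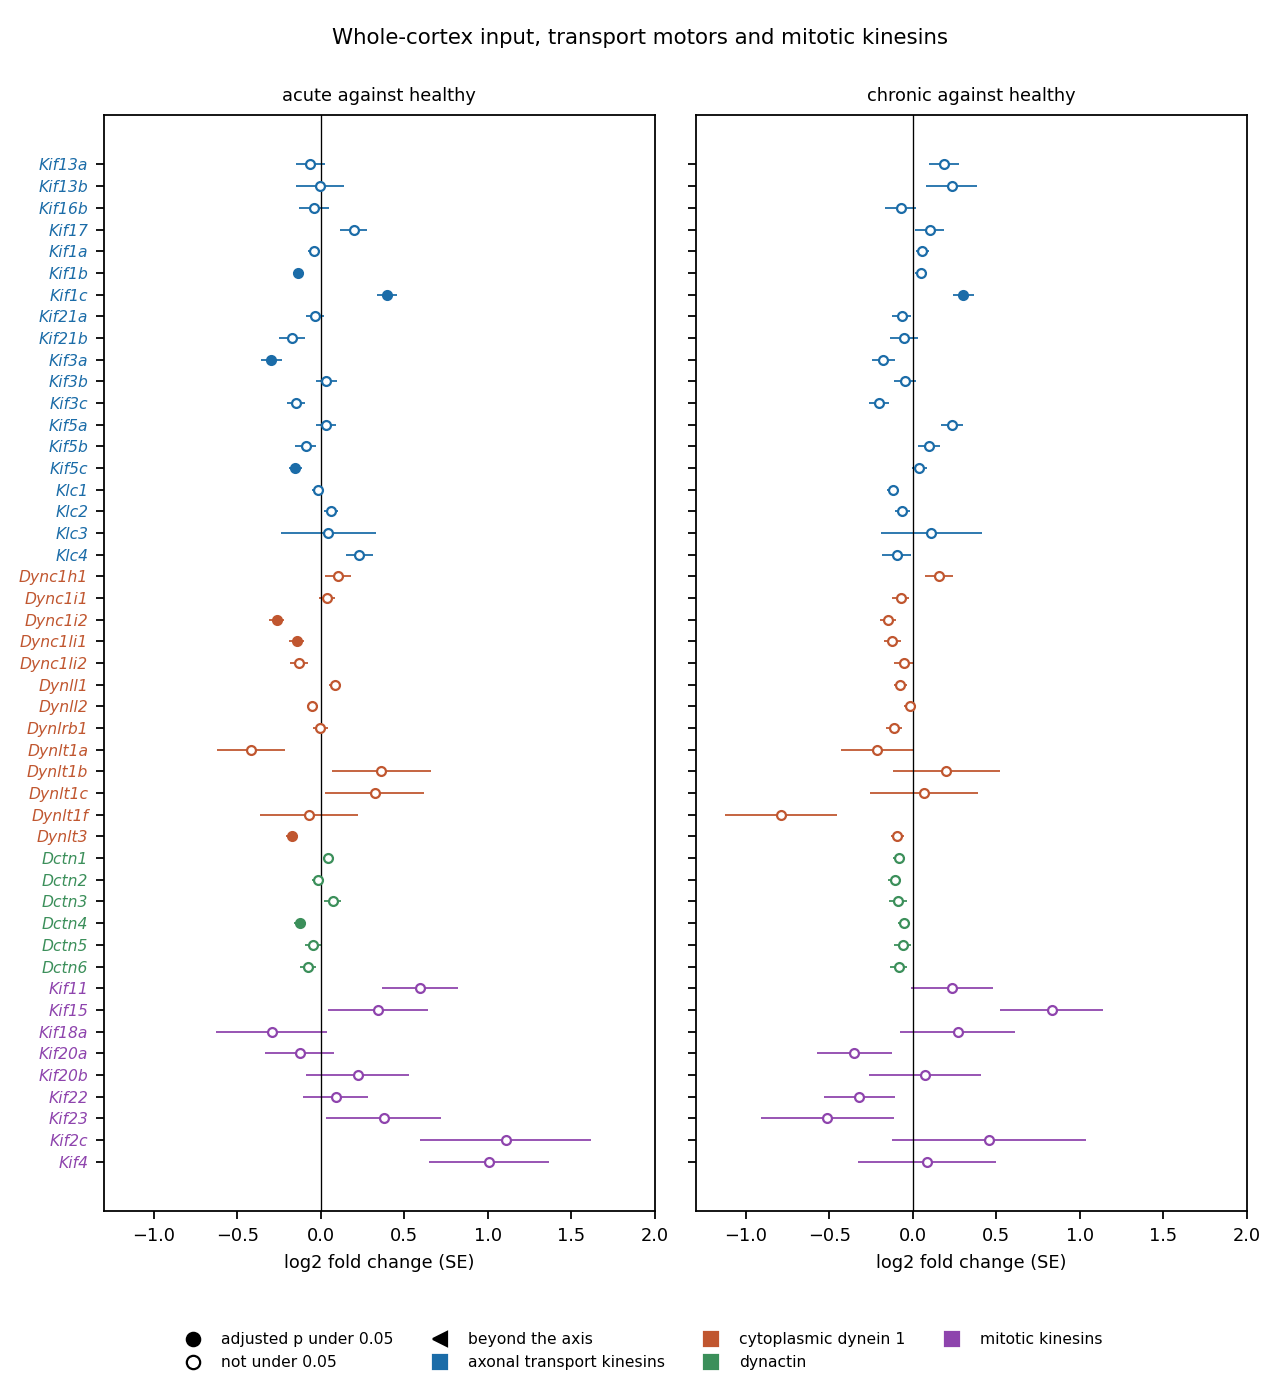
Log2 fold change with its SE in whole-cortex input, acute against healthy (left) and chronic against healthy (right), for 38 transport motor genes and 9 mitotic kinesins; filled points passed at an adjusted p under 0.05. Kif1c is right of 0 in both panels, 8 called genes of the whole set fell in the acute phase (7 of them drawn, Kif2a being in another role), and no mitotic kinesin passed.

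No mitotic kinesin passed in input in any comparison of phases. Of 9 tested in acute against healthy input, 7 had positive changes, with a median of 0.34 beside -0.0098 over all genes. The largest were Kif2c (1.11 ± 0.51, adjusted p 0.14), Kif4 (1.01 ± 0.36, adjusted p 0.0544) and Kif11 (0.60 ± 0.23, adjusted p 0.0713). All 12 mitotic kinesins together summed to 9.37 to 12.3 CPM in healthy, 12.3 to 14.7 CPM in acute and 9.51 to 12.4 CPM in chronic input. Of 33 tested cell division genes that are not motors, 7 rose in acute input and 0 fell (11.1% and 8.59% of all genes), led by Mki67 (0.97 ± 0.21, adjusted p 0.00307), Top2a (1.08 ± 0.25, adjusted p 0.00363) and Aurkb (1.76 ± 0.42, adjusted p 0.00570). The dynein regulator Nde1, which also serves dividing cells, rose by 0.79 in acute and by 0.46 in chronic input (adjusted p 1.77e-06 and 0.00521). Leukocyte markers rose beside them in 8 of the 9 tested, summing to 20.6 to 37.2 CPM in acute input against 7.80 to 19.7 CPM in healthy input. Microglial markers rose in 7 of 11 and fell in 1, and the part of either cell type in the cell division genes was not tested. In the pulldown 6 of the 9 leukocyte markers tested against input had 0 counts in all healthy IP libraries (Cd52, S100a8, S100a9, Ccr2, Ly6c2 and Plac8), 0 of the 9 in all acute and 6 in all chronic IP libraries, so each had reads in acute IP. Low genes in general were at 0 less often in acute IP. Of 4809 genes with 0.3 to 3.5 CPM in input, 35.4%, 9.46% and 49% had 0 counts in all healthy, acute and chronic IP libraries. Summed leukocyte markers ran 0 to 17.6 CPM in healthy, 0 to 12.6 CPM in acute and 0 to 12.6 CPM in chronic IP.

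The ciliary motors did not change with phase in either fraction by the test. Their sum was 53.9 to 61.0 CPM in healthy, 50.6 to 59.2 CPM in acute and 54.4 to 58.7 CPM in chronic input. Of the 9 ependymal markers tested, 2 were lower in acute input. Ciliary dynein 2 subunits Dync2h1 and Dync2li1, which carry cargo back along the cilium, did not pass in IP against input. Among the 43 tubulins and microtubule associated proteins, the tracks the motors walk on, 16, 20 and 18 were higher in IP than in input in healthy, acute and chronic libraries (7.2%, 8.56% and 8.74% of all genes) and 9, 4 and 8 lower (14.4%, 10.1% and 20% of all genes). The tubulin Tubb3, used by neurons, was higher by 1.49 ± 0.11, 1.73 ± 0.12 and 1.99 ± 0.13 in healthy, acute and chronic libraries, while Map2, the dendrite protein with a long transcript, stood at -1.90 ± 0.11, -1.63 ± 0.11 and -1.97 ± 0.12. In acute input 15 of the 43 were lower than in healthy input and 4 higher (8.59% and 11.1% of all genes), with Map2 at -0.35 ± 0.042 and Dcx at -0.72 ± 0.090.

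The 4 Dynlt1 genes (Dynlt1a, Dynlt1b, Dynlt1c and Dynlt1f) are near-identical copies on chromosome 17, so their reads could be split or lost and their values are uncertain. Dynlt1c and Dynlt1f had no read in chronic IP (at least 18.8- and 10.7-fold lower than in chronic input), and the Dynlt1f call held in 0 of 4 fits without a replicate. Exons of Kif20a, Klc3, Kif7 and Kif4 overlap genes on the other strand over 33.2%, 28.4%, 20.0% and 15.1% of their length, and counting without strand cannot assign those reads.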

How the data were processed

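RNA of IP and of input (28 libraries) was sequenced after poly A enrichment, per the labels' protocols. The authors deposited a table of raw read counts per gene, made with featureCounts 1.5.1 on exons of Ensembl 79 (GRCm38), without strand and with both mates counted as 1 fragment, per the file headers. STAR 2.4 and DESeq2 are named in the submitters' processing notes. The header of the table names 36 alignment files; the 28 columns that match the samples were used and 0 columns of other samples were present. Symbols were found for 42462 of the 43629 gene IDs (97.3%).

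Motor genes, roles, pathway lists and markers were chosen with earlier results of these data known. Named genes are 11 fixed ones and, in each comparison, up to 4 called members per direction with the smallest adjusted p. Counts were tested with edgeR 4.0.16 (R 4.3.3): genes with a count of at least 10 in enough libraries and 15 in all (filterByExpr), TMM scaling, robust quasi-likelihood F tests, and Benjamini-Hochberg adjustment over all genes of the fit. Input (14 libraries, 16381 genes) and IP (14 libraries, 13914 genes) were fitted apart for the phases, and all 28 libraries together (16580 genes) for IP against input and for the interactions. Calls were made at an adjusted p under 0.05. CPM use the TMM-scaled total. Length in bases is the summed exon length in the table. Floors cover counting error only. SEs come from the quasi-likelihood fit and include the spread between libraries, and SDs are taken over libraries. The procedure was tested on simulated data.

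Alternatives were no filter, size factors and Wald tests of DESeq2 1.42.0, all libraries in a single fit, the replicate number as a block and each replicate left out. Added after seeing the data were voom with quality weights in limma 3.58.1, an offset for exon length and a fit without the 4 IP libraries that had the lowest gene numbers. Figures and motif searches used Python 3.11.15.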

Additional observations from a re-analysis of the deposited data

Results flagged for a closer look

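Of 174 groups of 4 or 5 libraries examined, 21 had a library whose gap to its nearest neighbour passed Dixon's 95% critical value. Chance alone gives this in about 1 in 20 groups where values are normally distributed. A group with reads in 1 library alone always passes, as for Kif11 in healthy IP, Kif23 in healthy and chronic IP and Kif24 in acute IP. The 21 therefore cannot be set against that rate. Set against the other input libraries of its own phase, chronic 1 had the most Kif5a (1857 CPM) and Kif5c (768 CPM), acute 5 the least Kif5b (134.9 CPM), healthy 3 the lowest Kif3a (141 CPM), healthy 5 the lowest Dync1h1 (163 CPM), healthy 2 the highest Kif1c (54.2 CPM), healthy 3 the lowest summed dynein 1 level of 3070.2 CPM and acute 2 the highest summed dynactin level of 1221 CPM. Among mitotic kinesins in input, Kif11 reached 2.40 CPM in chronic 2 and Kif23 reached 2.62 CPM in acute 1.

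In IP, acute replicate 3, the library with the fewest genes detected, stood apart for Dync1i2 (30.3 CPM), Klc4 (0 CPM), Dync1i1 (198 CPM) and the summed dynein 1 level (1937 CPM), each the lowest of its group. Acute replicate 1, the library with the second fewest, had the lowest Kif1b (183 CPM), and chronic replicate 2 the highest Klc1 (2530.5 CPM). Among genes near the limit of detection 1 library lay above the rest: Kif11 in healthy 3 (2.99 CPM) and acute 5 (5.37 CPM), Kif23 in healthy 4 (2.04 CPM) and chronic 3 (9.18 CPM), and Kif24 in acute 4 (0.262 CPM).

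The chronic change from healthy differed between IP and input, by the interaction test, for Kif3a (0.87 ± 0.18, adjusted p 0.0197) and Dync1i1 (0.85 ± 0.21, adjusted p 0.0414). Neither passed by voom with library quality weights (adjusted p 0.0939 for Kif3a).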

How the results depend on the processing

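DESeq2 size factors in place of TMM left each count of called motor genes within 1.5 times its value, as did dropping the filter except in the chronic comparison with healthy input (2 called, 1 before) and the chronic interaction (1 called, 2 before). DESeq2's own test called 4 in chronic against healthy input, 8 in chronic against acute input, 1, 9 and 2 in the acute-healthy, chronic-healthy and chronic-acute comparisons of IP, and 2 and 6 in the acute and chronic interactions. One fit of all 28 libraries called 0 in each of the 3 input comparisons and 10, 13 and 8 in IP. IP and input share 1 estimate of the spread in that fit, and its part in these counts was not tested. Voom with quality weights called 14 and 2 in acute and chronic against healthy input, 5, 1 and 1 in IP, 30 in acute IP against input, and 4 and 0 in the interactions. Without the 4 IP libraries with the fewest genes, 21 were called in acute IP against input and 12 and 10 in the interactions. Of the single values, 3 turned round in sign while called under a setting: Kif1b in acute IP against input was 0.41 with the length offset, and Kif5c there was 0.29 without the 4 libraries (the cause of either was not tested). Kif23 in chronic IP against input was fitted at -6.76 without them, since the 3 chronic IP libraries left had 0 counts, so that this value could take no other sign and is no bound.

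Leaving out each replicate in turn gave 8 to 12 called in acute against healthy input, 0 to 3 in chronic against healthy input, 3 to 7 in chronic against acute input, 0 to 1, 0 and 0 in IP, 16 to 22, 12 to 16 and 18 to 22 in healthy, acute and chronic IP against input, and 0 to 3 and 0 to 1 in the interactions. Of 69 calls of motor genes, 54 held in every fit without a replicate and 42 under every setting. Replicate numbers did not pair the libraries: the deviations of same-numbered IP and input libraries of a phase correlated above 0.1 in 2 of 14 pairs, and those of same-numbered libraries of 2 phases in 1 of 13 input and 3 of 13 IP pairs. With the replicate number as a block, 10, 1 and 5 motor genes were called in the input comparisons, 0, 0 and 0 in IP, 17, 12 and 20 in IP against input, and 0 and 0 in the interactions, where Kif3a and Dync1i1 lost their calls. Depth limits the low genes: 0 counts of a mitotic kinesin in a pulldown library say no more than the floor of 3 counts.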
